A study of Mus musculus with 20 samples.

Results

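The genes Lin28a, Lin28b, Igf2bp1, Igf2bp2, Igf2bp3, Hmga1 and Hmga2 are 7 of the 23260 genes measured by single-cell RNA sequencing in 79009 cells of cultured mouse retina. They were chosen by name, as genes known for controlling developmental timing, with no threshold on a measured value. The tissue was retinal explant from wild-type CD1 mice, electroporated with 1 of 4 plasmids or plasmid mixes and sorted for GFP. Control tissue received GFP alone. The other groups received MEIS1, MEIS2 or a combination of both, which are related homeodomain transcription factors, from pCAGIG vectors that also carry GFP. The labels give the age as postnatal day 2 (P2) or postnatal day 5 (P5), whereas the design text gives 2 or 5 days in culture before collection. That text also names NR2F1 and NR2F2 in place of the MEIS factors, and the sample titles were followed here. Each age had 4 controls and, for each of the 3 MEIS groups, 2 libraries. Only electroporated, GFP-positive cells were sequenced, and no label says whether the libraries of a group came from separate animals, so that p-values measure the spread between these libraries, which may be technical.

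LIN28A and LIN28B are RNA-binding proteins that block the maturation of let-7 microRNAs, a family that accumulates as tissues mature. Mature let-7 in turn represses Lin28, the Igf2bp genes and Hmga2, so that these genes and let-7 form a switch between early and late developmental states. The IGF2BP proteins bind messenger RNAs and regulate their stability, transport and translation. The HMGA proteins bend AT-rich DNA and alter chromatin in proliferating precursors. In the retina, LIN28B and let-7 are known to act on the timing of progenitor output and on the response of Müller glia to injury.

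The let-7 match is the sequence feature that most of the members share, so the microRNA seed and 1 match per member are shown first. Of the mature mouse microRNAs in RefSeq (GRCm38.p6), 11 names carry the let-7 seed, bases 2 to 8, which is in capitals in these 3 examples.
let-7a-5p: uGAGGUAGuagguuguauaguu
let-7i-5p: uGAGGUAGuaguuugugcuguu
miR-98-5p: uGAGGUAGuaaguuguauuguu
The sequence CTACCTCA, the complement of the seed followed by A, was searched in the longest annotated 3′ UTR of each gene (GENCODE vM21, mm10, sense strand only). It was present in 6 of 7 members, against 3.06% of 21005 genes with an annotated 3′ UTR. The members were chosen by name and include known let-7 targets, so this difference is not an independent result. Igf2bp1 held 3 matches, Lin28a 2, and Lin28b, Igf2bp2, Igf2bp3 and Hmga2 1 each. Hmga1 held no such match and 1 of the 7-base match CTACCTC, which 9.02% of genes held. Counting that shorter match, which lies within the longer one, Lin28b, Igf2bp1 and Hmga2 held 4 each. These 3′ UTRs are longer than the median of 960 bases, with 1183 in Hmga1 and 6337 in Igf2bp1. Among genes whose 3′ UTR is within 20% of the same length, the share with an 8-base match was 12.6% for Igf2bp1, 8.53% for Lin28b and 5.48% for Hmga2. One match of each member is shown with its flanks, the match in capitals.
Lin28a, chr4:134005181-134005204, minus strand: ctgttgaaCTACCTCAtttttgcc
Lin28b, chr10:45381014-45381037, minus strand: cgggaagtCTACCTCAtgcaagca
Igf2bp1, chr11:95961770-95961793, minus strand: gaagtaaaCTACCTCAaggtgtga
Igf2bp2, chr16:22059465-22059488, minus strand: aataaaagCTACCTCAggtgtttt
Igf2bp3, chr6:49086779-49086802, minus strand: ttactcaaCTACCTCAggtattca
Hmga1, chr17:27563284-27563306, plus strand: ttcacaaaCTACCTCtggacggt
Hmga2, chr10:120364216-120364239, minus strand: ttcaatttCTACCTCAgcatcagt
A match is a run of letters in the annotation and not a measured site, and mature let-7 was not measured by these libraries.

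Libraries held 1625 to 17739 cells and 2376875 to 141540352 UMIs, which are counts of distinct captured RNA molecules. P2 MEIS2 replicate 2 stood apart, with a median of 1067 UMIs per progenitor and 10.0% of its UMIs from Malat1. Of 78261 distinct barcodes, 744 (0.951%) occurred in more than 1 library, at most 30 in any pair. The barcode starts of P2 control 1 and P2 combination 2 name each other's group. In progenitors, however, Meis1 and Meis2 followed the titles: Meis1 was at 2099 to 3750 CPM (UMIs of a gene per 1000000 UMIs of all genes in those cells) in the 4 MEIS1 libraries and 164 to 354 in the 8 controls, and Meis2 was at 848 to 1830 CPM in the 4 MEIS2 libraries and 34.6 to 197 in the controls. P2 combination 2 had 887 CPM of Meis1 and 913 of Meis2, and P2 combination 1 had 1001 and 671. P2 control 1 had the highest level of both among the controls, at 354 and 197 CPM. All 79009 deposited cells held at least 1 GFP UMI, and whether cells were also selected by that count was not tested. In progenitors GFP was at 10558 to 46150 CPM in the controls and 2416 to 11466 CPM in the MEIS libraries. The authors' progenitors expressed all 11 progenitor markers looked at, their amacrine cells all 11 amacrine markers and their rods all 10 rod markers at both ages. The types were named from these same counts, so this does not test the names.

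Levels are CPM summed over the cells of 1 type in 1 library with at least 20 such cells. Fold changes and adjusted p-values come from edgeR's quasi-likelihood test on those sums, with Benjamini-Hochberg adjustment over all genes tested in the cell type, and a gene is called at an adjusted p under 0.05. Summed libraries cannot tell apart fewer cells that express a gene from less RNA per cell. Lin28a (ENSMUSG00000050966) was too low to measure. It did not pass the filter on low counts in any of the 6 cell types with enough libraries. In 11818 progenitors of all libraries it had 6 UMIs in all, or 0.0386 CPM with an exact 95% Poisson interval of 0.0142 to 0.0840, and 16 of 20 libraries had none. In 38650 rods it had 119 UMIs, or 0.585 CPM (interval 0.485 to 0.700). No Lin28a UMI was found in 221 Müller glia, which allows up to 0.713 CPM, in 98 starburst amacrine cells, which allows up to 3.32 CPM, or in 55 horizontal cells, which allows up to 7.11 CPM. These intervals and limits cover counting error only. In cones, where only 7 libraries had at least 20 cells, Lin28b, Igf2bp1, Hmga1 and Hmga2 did not pass it either, with 55, 66, 45 and 6 UMIs in those libraries. The other 6 members passed the filter in progenitors, neurogenic cells, rods, amacrine cells and bipolar cells, although Hmga2 passed in bipolar cells with 24 UMIs and in rods with 231.

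Whether these timing genes change between the 2 ages was asked first in control progenitors, the dividing or recently dividing cells that give rise to late retinal neurons and Müller glia. Lin28b, Igf2bp1 and Igf2bp2 were lower at P5, and Hmga2 was higher. Igf2bp3 and Hmga1 were not called. So 4 of the 6 members tested were called, against 17.5% of the 14849 genes tested (10.6% higher and 6.96% lower).

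Lin28b (ENSMUSG00000063804, chr10:45376620-45486395), the let-7 blocker that persists later in development than Lin28a, was low in all control progenitors. P2 controls 1 to 4 had 8.70, 5.48, 6.16 and 2.27 CPM, and P5 controls 1 to 4 had 1.09, 3.21, 2.00 and 2.49 CPM. The groups overlapped, because P2 control 4 lay below P5 controls 2 and 4. The log2 fold change at P5 was -1.34 (SE 0.40, adjusted p = 0.0293, edgeR). This call was lost without P2 control 1, 2 or 3 or without P5 control 1, 3 or 4, with log2 fold changes of -1.13 to -1.38 and adjusted p-values of 0.0525 to 0.0852. Over all 20 libraries the log2 fold change was -1.65 (SE 0.29, adjusted p = 0.00032, edgeR), and the P2 MEIS libraries ranged from 3.61 to 10.8 CPM (median 7.60) against 0.826 to 3.65 CPM (median 1.87) at P5.

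Igf2bp1 (ENSMUSG00000013415, chr11:95957163-96005940) encodes the RNA-binding protein also known as IMP1. P2 controls 1 to 4 had 50.0, 42.8, 43.9 and 43.7 CPM, and P5 controls 1 to 4 had 7.16, 5.43, 24.1 and 12.2 CPM. All P5 controls lay below all P2 controls, and P5 control 3 was the highest of its age. The mean was 3.69-fold lower at P5, from 45.1 ± 3.30 to 12.2 ± 8.43 CPM (SD, n = 4 each), with a log2 fold change of -1.90 (SE 0.33, adjusted p = 0.00113, edgeR).

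Igf2bp2 (ENSMUSG00000033581, chr16:22059009-22163299), the family member that is most often retained in adult tissues, moved the same way with a smaller change. P2 controls 1 to 4 had 72.3, 50.8, 41.3 and 44.6 CPM, and P5 controls had 16.9, 21.6, 32.4 and 25.6 CPM. The groups did not overlap. The mean was 2.17-fold lower at P5, and the log2 fold change was -1.11 (SE 0.17, adjusted p = 0.000362, edgeR).

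Igf2bp3 (ENSMUSG00000029814, chr6:49085223-49214957), best known as an oncofetal RNA-binding protein, overlapped between ages. P2 controls had 107, 80.4, 65.3 and 50.4 CPM, and P5 controls had 53.4, 42.1, 65.5 and 64.2 CPM. Its log2 fold change was -0.42 (SE 0.18, adjusted p = 0.118, edgeR), with a 95% interval of -0.81 to -0.04. Without P2 control 4 it was called, at -0.57 (adjusted p = 0.032). Averaged over the 4 treatments, with all 20 libraries, it was called at -0.59 (SE 0.12, adjusted p = 0.0013, edgeR). That call was lost when each cell was thinned to 2000 UMIs (-0.46, adjusted p = 0.0649, edgeR).

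Hmga1 (ENSMUSG00000046711, chr17:27556497-27563674) encodes a chromatin protein abundant in dividing cells. P2 controls had 42.6, 97.7, 66.3 and 51.6 CPM, and P5 controls had 57.3, 71.0, 47.1 and 55.2 CPM. All P5 values lay within the P2 range. The log2 fold change was -0.17 (SE 0.48, adjusted p = 0.853, edgeR), and its 95% interval of -1.18 to 0.85 includes a change of more than 1 in the downward direction. It turned to 0.07 without P2 control 2. Counts of Hmga1 are uncertain, because the near-identical gene Hmga1b shares 82.0% of the 90-base stretches in the last 500 positions of the longest Hmga1 transcript, and reads that fit both may have been dropped or split. Hmga1b itself had 3.02 to 14.6 CPM in P2 controls and 4.51 to 6.05 CPM in P5 controls.

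Hmga2 (ENSMUSG00000056758, chr10:120361275-120476469), the sister gene that is a well-known let-7 target and marks young stem and progenitor cells in several tissues, moved the other way. P2 controls had 13.5, 4.87, 7.47 and 7.30 CPM, and P5 controls had 37.8, 22.9, 50.7 and 55.8 CPM. Every P5 control lay above every P2 control. The mean was 5.04-fold higher at P5, from 8.29 ± 3.67 to 41.8 ± 14.7 CPM (SD, n = 4 each), with a log2 fold change of 2.29 (SE 0.35, adjusted p = 0.0004, edgeR). In the plot of progenitor levels by group, all MEIS libraries at P5 lie above all MEIS libraries at P2 for Hmga2.

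**Figure D1:**
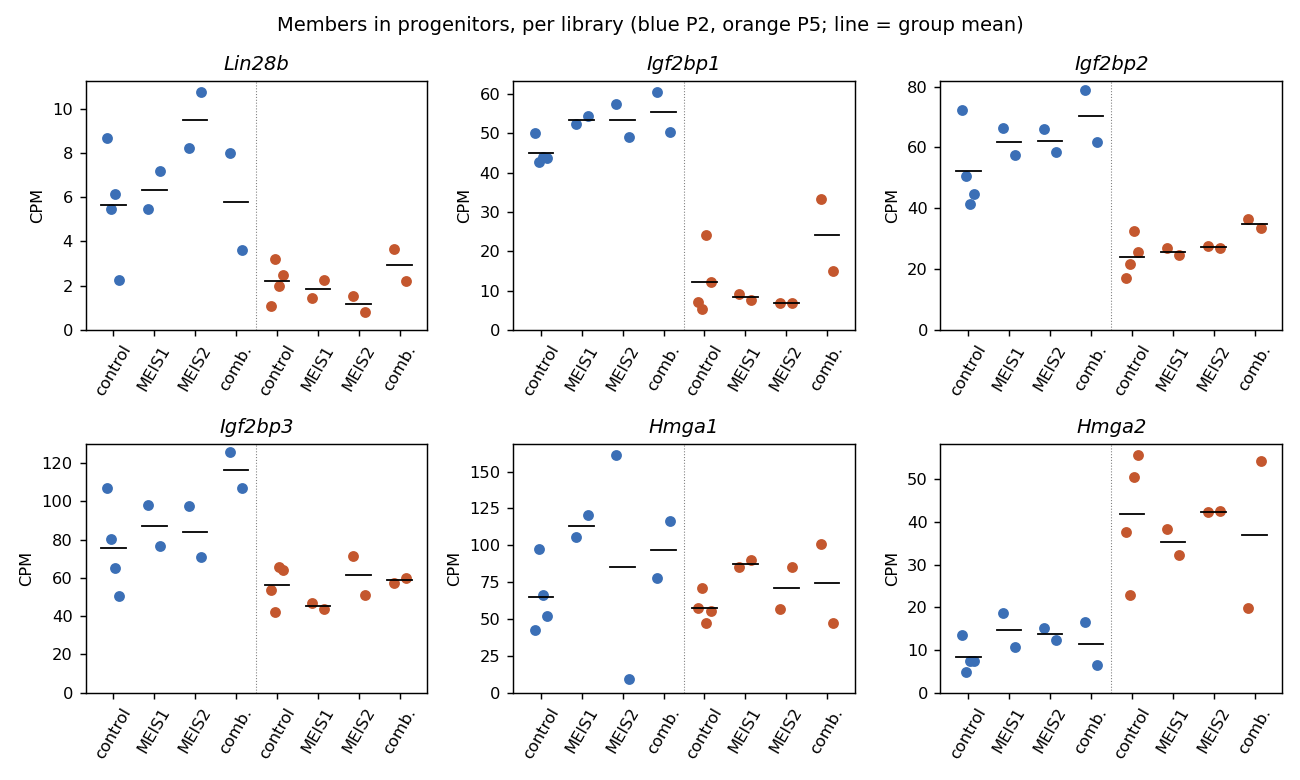
CPM (vertical axis) of 6 members in progenitors, 1 point per library, by group at P2 (blue) and P5 (orange), with lines at group means. Igf2bp1 and Igf2bp2 lie lower in every P5 library than in every P2 library and Hmga2 lies higher, whereas Igf2bp3 and Hmga1 overlap.

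Igf2bp1, Igf2bp2 and Hmga2 were also the members without overlap between all 10 P2 and all 10 P5 progenitor libraries. That was true of 4.46% of genes tested over all libraries, and of 18.0% of genes over the 4 and 4 controls, where the same 3 members did not overlap. Averaged over the 4 treatments, Lin28b, Igf2bp1, Igf2bp2 and Igf2bp3 were called lower and Hmga2 higher, against 39.7% of genes called. The log2 fold changes there were -2.05 for Igf2bp1 (SE 0.23), -1.02 for Igf2bp2 (SE 0.11) and 1.82 for Hmga2 (SE 0.24).

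The makeup of the progenitor class also changed with age. The summed level of 11 Müller glia markers rose from 2234 to 5165 CPM in P2 controls to 12434 to 20151 CPM in P5 controls, and none of the 11 was at 0. The share of progenitors with a UMI of Mki67 or Top2a, genes of dividing cells, was 11.3 to 51.8% in P2 controls and 7.45 to 28.8% in P5 controls. The part of the Müller glia markers in the members' values was not tested. For the dividing cells, progenitors were split by these UMIs, an alternative chosen after seeing the data. In progenitors with such a UMI, Hmga2 was at 5.05 to 13.3 CPM in 4 P2 controls and 22.8 to 43.3 CPM in the 3 P5 controls with at least 20 such cells. In the other progenitors it was at 4.77 to 13.6 and 22.3 to 56.2 CPM. Igf2bp1 was at 46.0 to 61.4 and 12.4 to 31.4 CPM in progenitors with such a UMI. In the other progenitors it was at 40.8 to 42.6 CPM in P2 and 4.78 to 20.7 CPM in P5 controls. Müller glia and starburst amacrine cells both had higher Hmga2 than progenitors in the pooled levels given below. Starburst amacrine markers summed to 29.5 to 90.3 CPM in P2 and 166 to 220 CPM in P5 control progenitors, with Fezf1 at 0 at both ages and Slc18a3 at 0 at P5. The part of either marker set in the Hmga2 result was not tested.

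The share of single cells with a UMI of a member was compared before and after each cell was brought to 1 depth. Of control progenitors, 5.34 ± 3.30% at P2 and 31.4 ± 7.0% at P5 had a Hmga2 UMI (SD, n = 4 each, two-sided exact permutation p = 0.0286, the smallest that 4 against 4 can give). Median depth was 8318 UMIs at P2 and 15995 at P5. After every cell was thinned to 2000 UMIs, which left out 158 of 5608 P2 and 6 of 1693 P5 progenitors, the shares were 1.2 ± 0.64% and 6.06 ± 2.60% (exact permutation p = 0.0286). Rods had a Hmga2 UMI in 0.260 ± 0.19% of cells at P2 and 0.610 ± 0.58% at P5, at median depths of 3800 and 3836.5 UMIs. P5 control 1 had 1.46% and the other P5 controls 0.186 to 0.468%. After thinning, which left out 2823 of 13602 P2 and 2079 of 10364 P5 rods, the shares were 0.185% and 0.295%. Igf2bp1 had a UMI in 28.1 ± 8.93% and 16.7 ± 5.88% of progenitors unthinned (exact permutation p = 0.0571), and in 8.89 ± 0.78% and 2.06 ± 1.43% thinned (exact permutation p = 0.0286). For Igf2bp2 the unthinned shares were 29.8 ± 13.1% and 31.9 ± 3.89% (exact permutation p = 0.771), and the thinned shares were 9.47 ± 3.41% and 5.74 ± 1.07% (exact permutation p = 0.114). Igf2bp3 went from 39.5 to 58.5% unthinned (exact permutation p = 0.143) and from 13.4 to 10.9% thinned (p = 0.371). Hmga1 went from 35.1 to 63.6% unthinned (exact permutation p = 0.0571) and from 11.6 to 11.7% thinned (p = 0.971), and Lin28b from 3.77 to 3.09% (p = 0.714) and from 1.21 to 0.887% (p = 0.486). These p-values are unadjusted, and the tests were run for 7 members.

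Neurogenic cells are progenitors committed to making neurons. In controls of this class Igf2bp1 and Igf2bp2 were called lower at P5, or 2 of the 6 members tested, against 9.27% of 13745 genes. Igf2bp1 had 77.0, 88.2, 62.7 and 69.2 CPM in P2 controls 1 to 4 and 20.6, 14.9, 40.2 and 26.1 CPM in P5 controls. The groups did not overlap, and the log2 fold change was -1.63 (SE 0.24, adjusted p = 0.000197, edgeR). Igf2bp2 had 49.5 to 74.7 CPM at P2 and 26.8 to 39.7 CPM at P5, with a log2 fold change of -0.94 (SE 0.20, adjusted p = 0.00412, edgeR). Hmga2 was far lower here than in progenitors of the same libraries, at 1.92, 1.99, 1.60 and 0 CPM in P2 controls and 3.04, 5.22, 5.20 and 4.86 CPM in P5 controls. Its groups did not overlap either, as in 13.2% of genes, and its log2 fold change of 1.67 was not called (SE 0.67, adjusted p = 0.14, edgeR). Over all 20 libraries it was called at 2.49 (SE 0.53, adjusted p = 0.00204, edgeR), where 21.2% of genes were called. Igf2bp1 (-1.57, adjusted p = 1.27e-06) and Igf2bp2 (-0.86, adjusted p = 0.000113) were also called there in edgeR. Igf2bp3 was not, at -0.36 (adjusted p = 0.0613, edgeR), but was called by DESeq2 (-0.39, adjusted p = 0.0324), and its adjusted p was 0.0266 to 0.182 with 1 library left out. Lin28b (-0.72, adjusted p = 0.447, edgeR), Igf2bp3 (-0.31, adjusted p = 0.386) and Hmga1 (-0.31, adjusted p = 0.715) were not called in the controls. Müller glia markers rose here too, from 848 to 1213 CPM in P2 controls to 3759 to 6084 CPM in P5 controls, and their part in the result was not tested.

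In rods, the light-sensing neurons that make up most of the retina, Igf2bp1 had its largest fold change of the 4 cell types tested in depth. P2 controls 1 to 4 had 45.5, 50.7, 47.6 and 59.8 CPM, and P5 controls had 3.47, 1.63, 12.7 and 6.46 CPM. The mean was 8.40-fold lower at P5, and the log2 fold change was -3.15 (SE 0.44, adjusted p = 0.000464, edgeR). It was called with any 1 control left out, at -3.83 to -2.87, with the first of these without P5 control 3. Igf2bp2 was called as well, at -0.65 (SE 0.20, adjusted p = 0.0373, edgeR), so that 2 of 6 members were called against 13.2% of 14786 genes. The groups of Igf2bp1 did not overlap, and 6.39% of genes were lower at P5 without overlap. The Igf2bp2 call did not hold without P2 control 1 (-0.51, adjusted p = 0.0959), without P2 control 3 or 4, without P5 control 2, 3 or 4, without TMM scaling, without the filter on low counts, with only the control libraries fitted, or after thinning (-0.51, adjusted p = 0.205). In these fits its log2 fold change was -0.51 to -0.69. Over all treatments it was called at -0.57 (SE 0.13, adjusted p = 0.00315, edgeR), and at -0.63 to -0.50 with any 1 of the 20 libraries left out. Igf2bp3 had 107, 105, 97.0 and 46.3 CPM at P2 and 65.1, 64.2, 65.0 and 74.8 CPM at P5, so that P2 control 4 alone lay below the P5 controls. Its log2 fold change was -0.47 (SE 0.21, adjusted p = 0.152, edgeR) with all controls and -0.67 (adjusted p = 0.015) without P2 control 4. Over all 20 libraries Igf2bp3 was called at -0.56 (SE 0.14, adjusted p = 0.0054, edgeR), and at -0.61 to -0.44 with any 1 library left out. Hmga1 fell by 1.06 over all 20 libraries (SE 0.30, adjusted p = 0.011, edgeR, 30.9% of genes called) and was not called in controls (-0.91, adjusted p = 0.196). Without P2 MEIS2 replicate 1, which had the highest Hmga1 in progenitors at 161 CPM, the rod value was -0.38 and the call was lost. The value in progenitors over all libraries went from -0.20 to 0.67. These fits leave P2 MEIS2 replicate 2, with a median of 836 UMIs per rod, as the only library of its group. Lin28b (-0.46, adjusted p = 0.529, edgeR) and Hmga2 (1.04, adjusted p = 0.377) were not called in control rods. The 10 rod markers summed to 2323 to 5237 CPM in P2 and 9882 to 17528 CPM in P5 control rods.

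**Figure D2:**
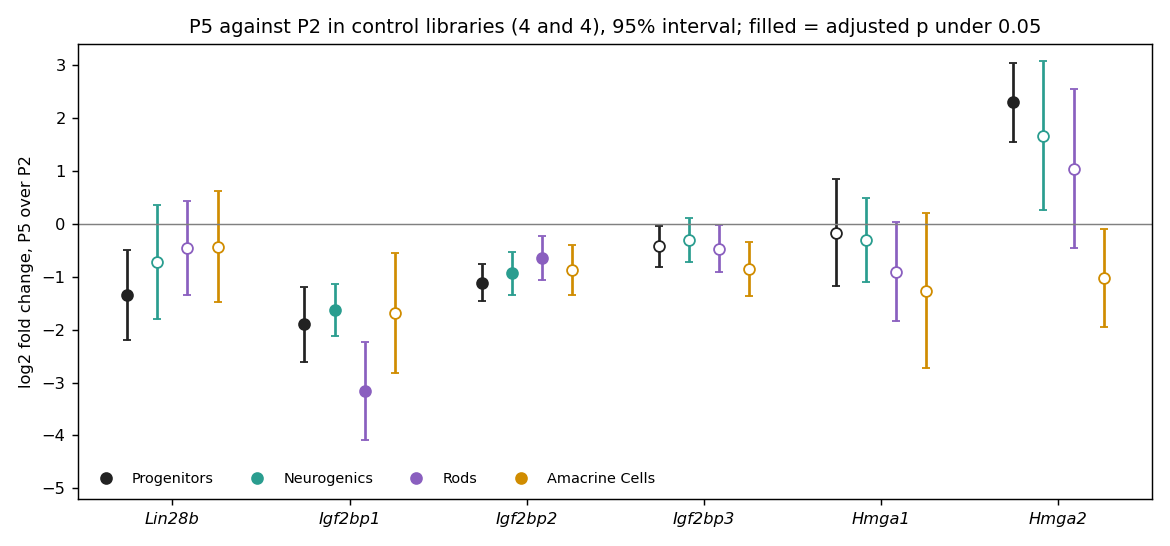
Log2 fold change of P5 over P2 in control libraries (vertical axis) for 6 members in 4 cell types, with 95% intervals, and filled points where edgeR's adjusted p was under 0.05. Igf2bp1 lies below 0 in all 4 types and Hmga2 lies above 0 in progenitors and below 0 in amacrine cells.

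Amacrine cells are inhibitory interneurons that are born before most rods. No member was called in their control libraries, where 0.397% of 13097 genes were called. Of all genes, 1166 had an unadjusted p under 0.05, as did 4 members: Igf2bp1 at -1.68 (SE 0.54, adjusted p = 0.27), Igf2bp2 at -0.88 (SE 0.22, adjusted p = 0.125), Igf2bp3 at -0.85 (SE 0.24, adjusted p = 0.185) and Hmga2 at -1.02 (SE 0.44, adjusted p = 0.507). Lin28b was at -0.43 (adjusted p = 0.819, edgeR) and Hmga1 at -1.26 (adjusted p = 0.619). DESeq2 called 2 members, Igf2bp2 and Igf2bp3, where it called 1.47% of genes. Igf2bp1 had 51.6, 44.3, 46.3 and 54.8 CPM in P2 controls and 8.03, 3.51, 43.7 and 10.7 CPM in P5 controls, so that P5 control 3 lay just under the P2 range. Without that library its log2 fold change was -2.82 (adjusted p = 0.00338, edgeR). Averaged over the 4 treatments, Igf2bp1 was called at -2.36 (SE 0.38), Igf2bp2 at -1.05 (SE 0.15), Igf2bp3 at -0.80 (SE 0.16) and Hmga2 at -1.88 (SE 0.30). Their adjusted p-values in edgeR were 0.00146, 0.000512, 0.00645 and 0.00146, and 6.65% of genes were called, or 871 (407 without P5 combination 2 and 1328 without P5 control 3). Hmga1 was not called by edgeR, at -1.36 (SE 0.45, adjusted p = 0.083), and was called by DESeq2 (-1.31, adjusted p = 0.0388) and without P2 MEIS2 2 (-1.57, adjusted p = 0.0286, edgeR). The Hmga2 call was lost after thinning (-1.15, adjusted p = 0.068).

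Hmga2 thus had opposite signs in amacrine cells and in progenitors of the same control libraries. P2 control amacrine cells had 43.5, 24.6, 31.5 and 23.7 CPM, and P5 control amacrine cells had 23.6, 14.0, 8.90 and 16.6 CPM. All P5 controls lay below all P2 controls, although the highest P5 and the lowest P2 value nearly met, and 1.21% of genes were lower at P5 without overlap. The difference between the cell types was tested in 1 fit of both types with the library as a block, an alternative chosen after seeing the data. The age log2 fold change of Hmga2 in amacrine cells less that in progenitors was -3.41 (SE 0.33, adjusted p = 0.00251, edgeR), where 2.67% of 13600 genes were called. It was -3.67 (SE 0.24, adjusted p = 1.49e-09) over all 20 libraries, where 29.5% were called. Starburst markers in amacrine cells rose with age, from 3.35 to 24.2 CPM in P2 controls to 46.9 to 168 CPM in P5 controls, with Fezf1 at 0 at P5. Igf2bp1 differed between rods and progenitors in the same kind of fit, at -1.30 (SE 0.21, adjusted p = 0.00328, 22.7% of genes called), as did Hmga1 at -0.76 (SE 0.20, adjusted p = 0.0239). In the controls no other member was called in these fits of amacrine cells, neurogenic cells (13.7% of genes called) or rods against progenitors. Over all 20 libraries more were called. Lin28b was at 1.30 in amacrine cells (adjusted p = 0.0194), 1.01 in neurogenic cells (adjusted p = 0.00399, 39.0% of genes called) and 1.66 in rods (adjusted p = 4.12e-05, 50.4% called). Its own age log2 fold change, with any 1 of the 20 libraries left out, was -1.79 to -1.49 in progenitors and -1.99 to -0.35 in neurogenic cells. It was -0.16 to 0.19 in amacrine cells and 0.18 to 0.59 in rods. Hmga1 was also called in amacrine cells at -1.22 (adjusted p = 0.00936), Igf2bp1 in neurogenic cells at 0.35 (adjusted p = 0.0181), and in rods Igf2bp2 at 0.40 (adjusted p = 0.0318) and Hmga2 at -1.48 (adjusted p = 0.0267).

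**Figure D3:**
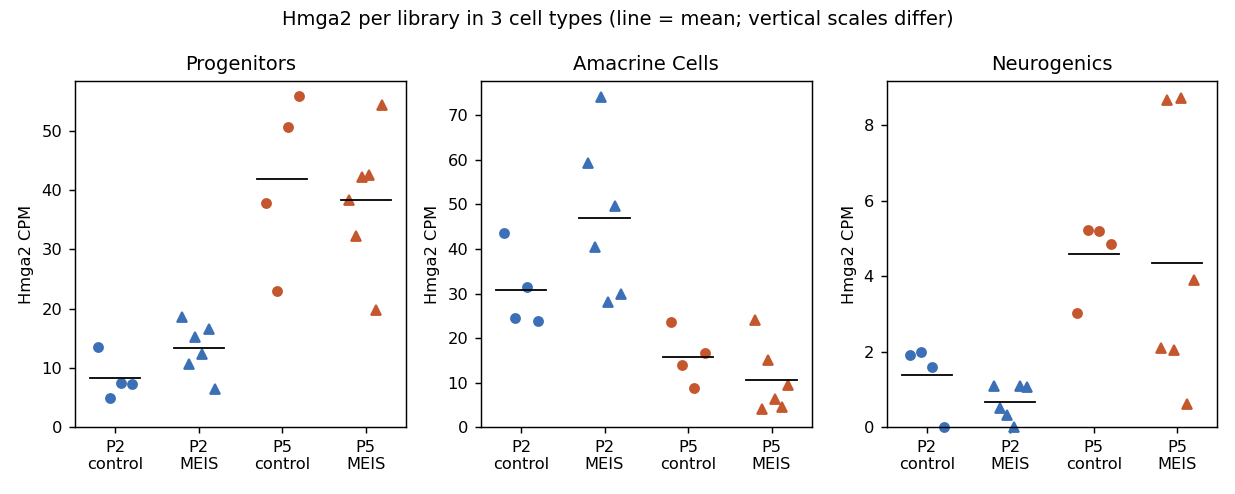
Hmga2 CPM (vertical axis, scales differ) per library in progenitors, amacrine cells and neurogenic cells, for control (circles) and MEIS (triangles) libraries at P2 (blue) and P5 (orange), with lines at means. Progenitors rise from 4.87 to 13.5 CPM in P2 controls to 22.9 to 55.8 CPM in P5 controls, whereas amacrine cells fall from 23.7 to 43.5 CPM to 8.90 to 23.6 CPM.

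The order of the cell types within each library is a description, since the authors named the types from the same counts. Igf2bp1 was higher in neurogenic cells than in progenitors and in rods in 10 of 10 libraries at each age. Its medians over libraries at P2 were 79.6 CPM in neurogenic cells, 58.8 in rods, 56.1 in amacrine cells and 50.1 in progenitors. At P5 they were 24.7, 3.87, 9.38 and 8.31 CPM in the same order of types, and rods lay below progenitors in 10 of 10 libraries. Amacrine cells and rods did not separate at P2 (6 of 10 libraries), nor amacrine cells and progenitors at P5 (6 of 10). Igf2bp3 was higher in neurogenic cells than in progenitors in 10 of 10 libraries at each age. Hmga1 was higher in progenitors than in rods in 10 of 10 libraries at each age, with medians of 87.7 and 30.3 CPM at P2 and 64.1 and 14.4 CPM at P5. Hmga2 was higher in amacrine cells than in progenitors in 10 of 10 libraries at P2 (medians 35.9 and 11.5 CPM) and lower in 10 of 10 at P5 (11.8 and 40.3 CPM).

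The rarer types could be given only as pooled levels. Their intervals cover counting error only and not the spread between libraries, so they do not test a change with age. The 98 starburst amacrine cells, cholinergic interneurons, had 382 Hmga2 UMIs, or 284 CPM at P2 (exact 95% Poisson interval 240 to 333) and 611 CPM at P5 (535 to 694). Of the 50 control starburst cells at P2, 29 were from P2 control 1, and of the 27 at P5, 26 were from P5 control 1. Starburst cells had 2 Igf2bp1 UMIs in all and 61 Lin28b UMIs, the latter at 67.5 CPM (51.7 to 86.7). The 221 Müller glia had 372 Hmga2 UMIs, or 114 CPM at P2 (93.8 to 137) and 80.7 CPM at P5 (71.2 to 91.1), and 7 Lin28b UMIs. Bipolar cells reached 20 cells in only 2 P2 libraries, 1 of them a control, and in all P5 libraries. Igf2bp1 had 78.2 CPM in that control and 4.47 to 43.6 CPM in the 10 P5 libraries, with no test. In cones, 4 P2 and 2 P5 controls reached 20 cells, and Lin28b was at a mean of 9.86 CPM at P2 and 20.7 at P5, Igf2bp1 at 19.7 and 1.06 and Hmga1 at 18.2 and 2.13, with no fit across genes. Only Igf2bp2 (0.58, adjusted p = 0.709) and Igf2bp3 (0.09, adjusted p = 0.968) were tested in control cones with edgeR, where 0.0605% of 6607 genes were called.

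The genes most like each member were sought by Pearson's r of mean log2(CPM + 1) over 11 combinations of cell type and age in controls, among 11985 genes. For Igf2bp1 they were Rpl37, Abracl and Nuak2 (r of 0.97 each), and for Hmga2 Ltbp1, Grb14 and Phlda1 (r of 0.94 each). For Lin28b the first was Gm15559 (r = 0.98), for Igf2bp2 Tex10 (r = 0.91), for Igf2bp3 Rnasek (r = 0.89) and for Hmga1 Arf6 (r = 0.97). These values describe 11 points that share libraries and depth.

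Igf2bp1 also varied between libraries of the same age. Among the 10 P5 libraries, control 3 and combination 1 held the first and second highest Igf2bp1 in each of 5 cell types. In progenitors they had 24.1 and 33.4 CPM, against 5.43 to 14.9 CPM in the other 8. In neurogenic cells they had 40.2 and 51.3 CPM, in rods 12.7 and 22.7, in amacrine cells 43.7 and 42.1, and in bipolar cells 24.6 and 43.6. No other member had 1 pair of libraries in the first and second place of all 5 types. The same 2 libraries had the highest share of progenitors with a Mki67 or Top2a UMI, 28.8 and 32.4% against 7.32 to 17.5% in the others. Their summed Müller glia markers, 12434 and 12193 CPM, were the third and second lowest of the 10. The part of these differences in the Igf2bp1 levels was not tested.

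**Figure D4:**
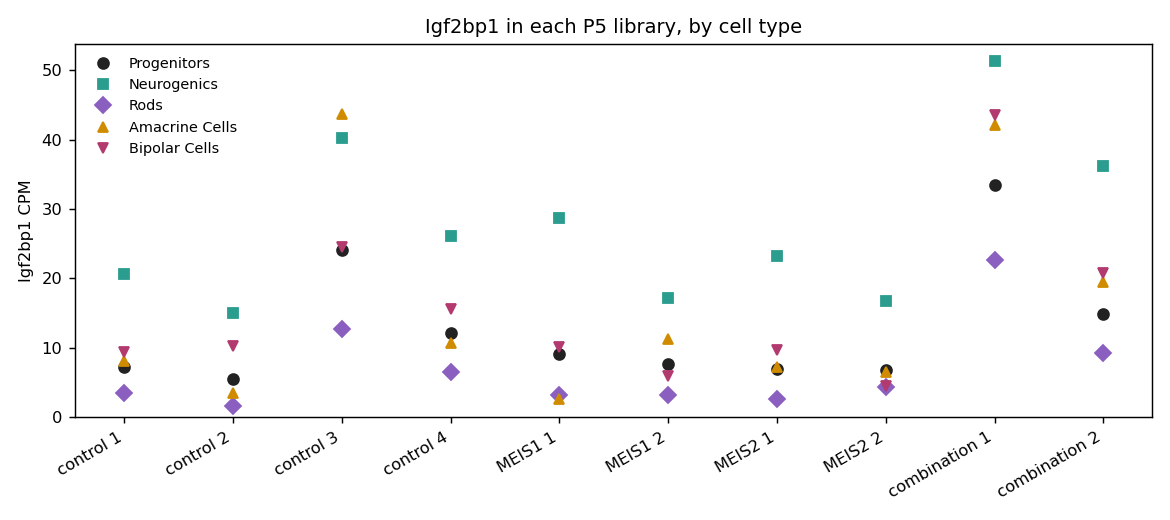
Igf2bp1 CPM (vertical axis) in each of the 10 P5 libraries (horizontal axis), with a point for each of 5 cell types. Control 3 and combination 1 lie above the other libraries in all 5 types, at 24.1 and 33.4 CPM in progenitors.

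Whether MEIS factors alter these timing genes was asked at each age by setting the mean of the 3 MEIS groups against control. No member was called in any cell type tested, at either age. In progenitors 0.0135% of genes were called at P2 and 0.0202% at P5, and an unadjusted p under 0.05 was reached by 1357 genes at P2 and 284 at P5 but by none of the 6 members. The 2 genes called at P2 were the electroporated factors themselves, Meis1 (adjusted p = 0.00417, edgeR) and Meis2 (adjusted p = 0.0455). Both were also among the 3 genes called at P5. In other types edgeR called 0 genes at P2, and at P5 0 in amacrine cells and rods, 1 in neurogenic cells (0.00728%) and 1 in bipolar cells (0.00678%), none of them a member. With 1 library left out, the P2 counts in neurogenic cells and rods ranged upward from 0 and were highest without P2 MEIS2 1. That fit leaves the shallow P2 MEIS2 2 as the only library of its group. Outside progenitors the lowest unadjusted edgeR p of a member was 0.0496, for Igf2bp2 in P5 bipolar cells (0.32, SE 0.14, adjusted p = 1). On unscaled levels, 5 of 63 exact permutation tests of members over cell types and ages gave an unadjusted p under 0.05, all with MEIS higher. Tests at 1 age use the same libraries in each cell type, so they are not independent of each other. Of the 63, 54 were of members that passed the filter, and 2.75% of the same tests of all genes that passed it gave such a p with MEIS higher (4.33% in either direction). That share was 3.44% in P2 amacrine cells, 4.88% in P2 progenitors, 5.09% in P2 rods and 1.47% in P5 bipolar cells. The member tests were Igf2bp1 in P2 amacrine cells (65.7 against 49.3 CPM, exact permutation p = 0.0190) and P2 progenitors, and Igf2bp2 in P2 amacrine cells (79.1 against 60.4 CPM, p = 0.0381), P5 bipolar cells (31.1 against 24.7 CPM, p = 0.0381) and P2 rods (60.7 against 48.0 CPM, p = 0.0476).

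At P2 the log2 fold changes of MEIS over control in progenitors ran from 0.08 for Igf2bp1 (95% interval -0.54 to 0.69) to 0.49 for Hmga2 (-0.19 to 1.18). Igf2bp1 was at 49.2 to 60.6 CPM (median 53.5) in the 6 MEIS libraries against 42.8 to 50.0 in the 4 controls, with 5 of 6 above all controls. On these unscaled levels a two-sided exact permutation test gave p = 0.0190 for Igf2bp1, whereas the edgeR fit did not call it with TMM scaling (adjusted p = 0.978) or without (0.27, adjusted p = 0.72). Igf2bp2 was at 57.5 to 78.8 CPM (median 64.0) against 41.3 to 72.3, and its log2 fold change was 0.14 (-0.18 to 0.46). Hmga1 ranged most, from 9.23 CPM in the shallow P2 MEIS2 replicate 2 to 161 CPM in replicate 1 of that group, and its interval ran from -0.48 to 1.39. For Igf2bp3 the log2 fold change was 0.16 (-0.20 to 0.51) and for Lin28b 0.12 (-0.61 to 0.86).

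At P5 the log2 fold changes ran from -0.28 for Lin28b (-1.16 to 0.59) to 0.41 for Hmga1 (-0.53 to 1.35). Hmga2 was at 19.8 to 54.3 CPM (median 40.3) in 6 MEIS libraries against 22.9 to 55.8 in controls, with a log2 fold change of -0.14 (-0.78 to 0.50). Igf2bp1 was at 6.82 to 33.4 CPM (median 8.31) against 5.43 to 24.1. Of the 6 combinations of construct and age tested alone in progenitors, the P5 combination gave Igf2bp1 at 1.01 (SE 0.39) and Igf2bp2 at 0.53 (SE 0.20), which had unadjusted edgeR p-values of 0.0181 and 0.0167 and were not called (adjusted p = 1). That group is 2 libraries, 1 of which is the combination 1 library described above. The MEIS effect at P5 less that at P2 was not called for any member, and for no gene tested (331 at an unadjusted p under 0.05), with -0.63 for Hmga2 (SE 0.44, adjusted p = 1, edgeR).

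**Figure D5:**
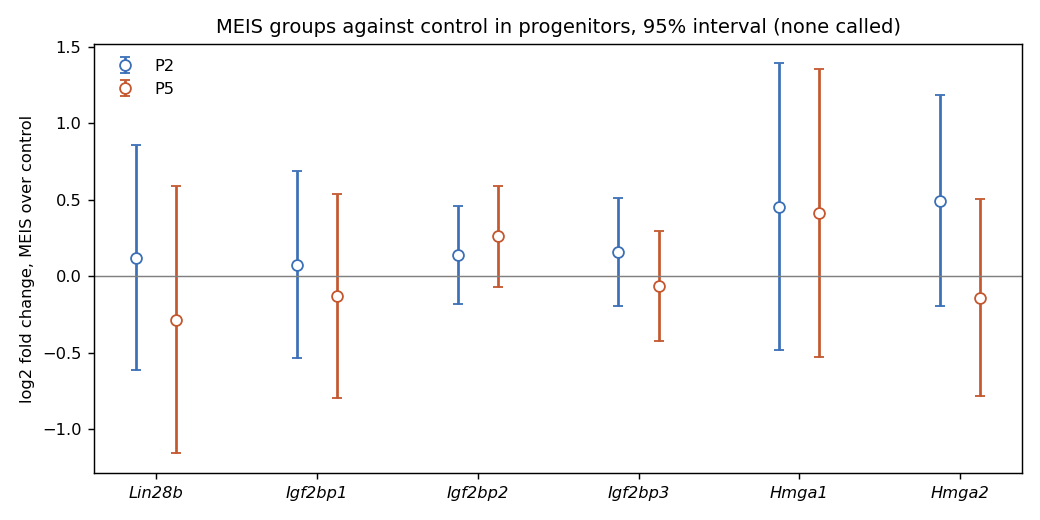
Log2 fold change of the MEIS groups over control in progenitors (vertical axis) for 6 members at P2 (blue) and P5 (orange), with 95% intervals. All intervals include 0.

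Other genes of the pathway were read from lists chosen with the members. In control progenitors 17.5% of all genes were called between ages. Of 26 tested genes that process or guard let-7, 0 rose and 2 fell in control progenitors at P5, Hnrnpa1 at -0.88 (adjusted p = 0.0018, edgeR) and Trim71, a classic heterochronic gene and let-7 target, at -1.90 (adjusted p = 0.0115). Of the 31 names on that list, Tut4, Tut7, Tent2, Mir99ahg and Mirlet7bhg were not among the genes measured. The median of the list was -0.07, against -0.04 over all genes. Of 33 let-7 target genes 2 rose and 5 fell, with a median of -0.34. The cell cycle regulators Ccnd2 (3.49) and Cdk6 (1.10) rose, and Fign (-3.04), Mycn (-1.90) and Nr6a1 (-0.52) were among those that fell. Of 20 genes of insulin-like growth factor signalling and known IGF2BP partners 2 rose, Insr (1.07) and Cd44 (1.49), and 3 fell, Elavl2 (-1.56), Igfbp2 (-1.31) and the imprinted RNA H19 (-2.28). Of 15 chromatin genes related to Hmga, 0 rose and 7 fell, among them Hmgn2 (-1.43), Hmgb3 (-1.36), H2afz (-1.73) and the linker histone gene H1f0 (-1.22), with a median of -1.02. Of 20 cell cycle genes 2 fell, Mcm7 (-1.45) and Ccne2 (-1.51), with a median of -1.55. Of 9 early progenitor genes 5 fell, among them Fgf15 (-2.61), Crabp2 (-3.04), Sfrp2 (-1.66) and Sox11 (-1.47). Of 16 late progenitor genes 7 rose, among them Car2 (2.60), Crym (3.1), the water channel gene Aqp4 (3.5) and the retinoid-binding protein gene Rlbp1 (2.36). The Müller glia markers, which share genes such as Rlbp1 with the late list, also rose in control progenitors, and their part was not tested. Averaged over the 4 treatments, where 39.7% of all genes were called, 2 let-7 targets were higher and 19 lower, and all 20 cell cycle genes were lower. No gene of these lists was called for MEIS in progenitors.

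Genes other than the members that hold the 8-base let-7 match were described in the same comparison. Of 471 such genes tested in control progenitors, 56 were higher and 37 lower at P5, with a median log2 fold change of -0.02. Of the 22 with 2 or more matches, as in Igf2bp1, 1 was higher and 7 were lower, with a median of -0.33. Their 3′ UTRs had a median length of 4916 bases, against 1207 over all genes with a 3′ UTR, and the part of length in these counts was not tested. Over all 13123 genes with a 3′ UTR 1471 (11.2%) were higher and 924 (7.04%) lower, with a median of -0.03. Averaged over the 4 treatments, 1 of the 22 was higher and 11 were lower, where 20.6% and 20.9% of all genes with a 3′ UTR were. Rods had the largest fold change of Igf2bp1 among the 4 cell types tested in depth. There, 7.4% of genes with a 3′ UTR were higher and 6.3% lower in controls. Of 21 genes with 2 or more matches, 1 was higher and 0 lower, with a median of 0.06. Averaged over the 4 treatments, 2 were higher and 3 lower, with a median of -0.12, where 16.3% and 15.7% were. In neurogenic cells 0 of 20 were higher and 2 lower in controls (6.94% and 2.61% of genes with a 3′ UTR), and 1 and 4 averaged over the treatments (13.7% and 8.11%). In amacrine cells 0 of 20 were called in controls, and 1 was higher and 1 lower averaged over the treatments (3.99% and 2.62%).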

How the data were processed

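The authors deposited unnormalized UMI counts for every gene in every cell. A second deposited table gives the library, the cell type and the percent of mitochondrial UMIs of each cell, the last of which entered no test. Reads were processed with Cell Ranger on mm10 and Seurat 5, per the submitters' processing notes. Cell types and samples were taken from the deposited table of cells, and groups from sample titles. Counts were summed per library and type (at least 20 cells), filtered with filterByExpr, scaled by TMM and fitted with edgeR 4.0.16 (R 4.3.3) with 1 mean for each of the 8 groups. Alternatives used DESeq2 1.42.0 and Scrublet in scanpy 1.11.5 (3220 cells marked, 4.08%). On simulated counts for P5 against P2 (14849 genes), edgeR called 42% of genes changed 2-fold and 83% of those changed 4-fold. For MEIS against control it called 33% and 83% at P2, and 32% and 85% at P5. False calls were 7 of 132 calls for age, 9 of 125 for MEIS at P2 and 2 of 119 for MEIS at P5. Each simulated gene had the spread that edgeR's trend gives its level, so these shares need not hold for members that vary more. Same-numbered controls of the 2 ages had correlated deviations of 0.092 to 0.288, over the 0.1 required of every pair in 3 of 4, and differently numbered controls of -0.355 to 0.228, so numbers were not used to pair libraries. The members, lists and tests were chosen with earlier results of these data known. All members that passed the filter are named for age in the controls, and from each list in control progenitors the called genes with the smallest adjusted p, up to 4 rising and 4 falling, of which 1 gene is not reported here.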

Additional observations from a re-analysis of the deposited data

Results flagged for a closer look

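Dixon's test at the 95% level was applied to 53 sets of 4 control libraries, of which chance alone would single out about 1 in 20, and it singled out 5. Igf2bp1 in progenitors of P2 control 1, at 50.0 CPM, lay above the other P2 controls (42.8 to 43.9). Igf2bp3 in rods of P2 control 4, at 46.3 CPM, lay below the others (97.0 to 107), and in rods of P5 control 4, at 74.8 CPM, above the others (64.2 to 65.1). Hmga2 in neurogenic cells of P5 control 1, at 3.04 CPM, lay below the others (4.86 to 5.22). Lin28a in progenitors of P2 control 1, at 0.0935 CPM, was the only P2 control above 0, which rests on 3 UMIs.

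The age effect differed between cell types for 3 members by a test of the difference in control libraries (edgeR), which was chosen after seeing the data. For Hmga2, the 1 member called in amacrine cells, where 2.67% of genes were called, the log2 fold change less that in progenitors was -3.41. Of the 6 members 2 were called in rods, where 22.7% of genes were. In rods less progenitors it was -1.30 for Igf2bp1 and -0.76 for Hmga1.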

How the results depend on the processing

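The controls' age results for Igf2bp1 and Hmga2 in progenitors kept their direction and call under every alternative tried, as did that of Igf2bp2. In progenitors, genes called between ages in controls numbered 2602, against 1148 without the P5 libraries numbered 1, 1060 after thinning to 2000 UMIs, 438 in cycling progenitors alone, and 1573 to 3214 with 1 library left out. The Lin28b call in control progenitors was lost with only the groups compared (-1.31, adjusted p = 0.0657), with groups from the barcode start (-1.02, 0.0605), without P2 control 1 and P2 combination 2 (-1.13, 0.0826), without the P5 libraries numbered 1 (-1.18, 0.122), and in progenitors with (-1.11, 0.288) or without (-1.53, 0.0513) a Mki67 or Top2a UMI, against -1.34. Averaged over treatments, thinning left 2917 of 5901 genes and 3 of 5 members called: Igf2bp3 missed the threshold, and Lin28b did not pass the filter on low counts. In control rods, 1949 genes and 2 members were called. One member was called without TMM (1851 genes), without the filter (1816), with only the groups compared (1449), without P2 control 1 and P2 combination 2 (2164) and after thinning (1846), and 1 to 2 with 1 library left out (1124 to 2315 genes). In amacrine controls edgeR called 52 genes and no member, DESeq2 192 genes and 2 members, and edgeR with 1 library left out 8 to 155 genes and 0 to 1 member, the most without P5 control 3.

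For MEIS at P2, 2 genes were called in progenitors, against 6 with DESeq2, 0 with only the groups compared, 1 with the replicate block, 414 with groups from the barcode start, 116 without P2 control 1 and P2 combination 2, 1 without the shallow P2 MEIS2 2, 0 without the P5 libraries numbered 1, and 0 to 761 with 1 library left out, the highest without P2 MEIS2 1. In neurogenic cells and rods, where 0 were called, the counts were 122 and 140 with DESeq2, 1053 and 285 with groups from the barcode start, and 786 and 499 without P2 control 1 and P2 combination 2. In progenitors at P5, 3 were called, against 6 with DESeq2, 5 with the block, 0 with groups from the barcode start, 1 without the P5 libraries numbered 1, and 2 to 5 with 1 library left out. No member was called for the mean of the MEIS groups under any of these. For MEIS2 alone at P2, Hmga1 was called without P2 MEIS2 1 (-3.20, adjusted p = 0.0107), which leaves the shallow library as the only one of its group, assumed to vary like the other groups. The causes were not tested.

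Signs turned only for values that were not called. With the replicate block, MEIS effects in progenitors were -0.041 for Lin28b at P2, and 0.37 for Igf2bp1 and 0.10 for Hmga2 at P5. With groups from the barcode start, Hmga1 at P2 was -0.13. After thinning, the P5 effects were -0.065 for Igf2bp2, 0.015 for Igf2bp3 and 0.045 for Hmga2, and the P5 less P2 share of progenitors was -3.73 percentage points for Igf2bp2 and -2.53 for Igf2bp3. Without the P5 libraries numbered 1, Hmga2 was 0.025 for MEIS at P5 and -0.24 for age in control rods. For age over all treatments in amacrine cells, Lin28b was -0.25 without those libraries and -0.0074 without the filter. With all libraries, the age effect less that in progenitors was -0.16 for Igf2bp1 in amacrine cells and 0.20 for Hmga2 in neurogenic cells. With 1 library left out, Hmga1 ran from -0.52 to 0.15 (age over all treatments, neurogenic cells), -0.40 to 0.67 (the same, progenitors), -0.36 to 0.069 (age, control progenitors) and -0.70 to 0.73 (MEIS at P2). Hmga2 ran from -0.27 to 1.37 (age, control rods) and -0.42 to 0.037 (MEIS at P5). Igf2bp1 ran from -0.0055 to 0.13 for MEIS at P2 and -0.39 to 0.44 at P5. Lin28b ran from -0.16 to 0.19 (age over all treatments, amacrine cells), -0.12 to 0.34 (MEIS at P2) and -0.46 to 0.013 (MEIS at P5).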

Other observations

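Genes of late progenitors were also read in neurogenic cells. Of 15 tested genes of late progenitors, 9 were higher and 1 lower at P5 in control neurogenic cells, with a median log2 fold change of 1.18 (edgeR), where 9.27% of all genes were called. Müller glia markers, which share genes such as Rlbp1 with that list, rose in the same cells, from 848 to 1213 CPM in P2 controls to 3759 to 6084 CPM in P5 controls, and their part was not tested. Rlbp1, a retinoid-binding protein gene of Müller glia, was at 4.59 (SE 0.51, adjusted p = 1.79e-05). Crym was at 4.50 (SE 0.67, adjusted p = 0.000241), and Car2, a carbonic anhydrase gene, at 2.44 (SE 0.37, adjusted p = 0.000297). Casz1, a zinc finger factor gene, was the 1 that fell (-1.05, SE 0.29, adjusted p = 0.0251). Of 19 genes of IGF signalling and IGF2BP partners, the growth factor gene Igf1 (5.65, SE 1.22, adjusted p = 0.00578) and Irs1 (1.12, SE 0.24, adjusted p = 0.00426) were higher, and Igfbp2, whose product binds IGFs, was lower (-2.18, SE 0.38, adjusted p = 0.000909). In amacrine cells averaged over the 4 treatments, where 6.65% of genes were called, 2 of 21 genes of IGF signalling and IGF2BP partners were higher, Igf1 (4.40, adjusted p = 0.00124, edgeR) and Igfbp3 (3.08, adjusted p = 0.00754). Myc, which is on that list and on that of let-7 targets, was lower (-2.54, adjusted p = 0.00118, edgeR). It was the only gene called of the 29 let-7 targets tested.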
